A study of Mus musculus with 6 samples.

Results

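Glycolysis and the response to low oxygen were examined through 42 genes, each found as a single row under its own name among the 36699 gene rows of the authors' deposited table. They form a group of 26 genes for glucose uptake, the glycolytic enzymes, lactate handling and the control of pyruvate entry into mitochondria, and a group of 16 other hypoxia-inducible genes and subunits of the hypoxia-inducible factor (HIF). The members were listed by name and not by a rule on their measured values, but earlier results of these data were known when they were chosen. RNA came from A2Lox.cre mouse embryonic stem (ES) cells, which are built so that a transgene placed at 1 chosen locus can be switched on by doxycycline, after 3 days of culture as embryoid bodies, free-floating aggregates in which ES cells differentiate. Both groups carried the Flag-Sp5 construct. One group of 3 libraries received no doxycycline, and the other group of 3 received the drug over the last 24 hours, starting on day 2, so that they made Sp5 with a Flag tag, a zinc-finger protein of the Sp family of transcription factors. Whether the libraries of a group are separate cultures is not in the labels, and the p-values may then measure technical spread alone. Cells given the drug but lacking the transgene were not analysed here, so effects of the drug and of Sp5 cannot be told apart.

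Glycolysis breaks glucose down to pyruvate in the cytosol, and cells that rely on it turn much of the pyruvate into lactate, which monocarboxylate transporters export. ES cells are known for high glycolytic flux, and the balance between glycolysis and mitochondrial respiration is known to shift as they leave the naive state and differentiate. HIF, a dimer of an oxygen-regulated alpha subunit and the constitutive ARNT subunit, switches on most glycolytic genes when oxygen is low. Prolyl hydroxylases (Egln genes) mark the alpha subunit for destruction when oxygen is present.

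Expression is given in FPKM (fragment counts scaled by transcript length and library size), as 1 value for each group. There is no SD because the authors' deposited table gives no value per library. How the libraries entered the authors' test cannot be seen from these values, so the spread behind the q-values is not known. In what follows, "rose" and "fell" stand only for genes that had a Benjamini-Hochberg adjusted p (q) under 0.05 in the authors' Cuffdiff test, with doxycycline set against without. Induction of Sp5 itself was visible as a change from 0.769 to 126 FPKM in the authors' deposited table. All 8 ES cell markers were detected, with Pou5f1 at 999 and 1058 FPKM without and with doxycycline. Of these markers 2 rose (Nanog 2.54-fold and Tdgf1 1.46-fold), 3 fell (Utf1, 314 to 119 FPKM, Lin28a and Dppa4) and the other 3 did not pass the authors' test. The ES cells had been grown on fibroblasts before aggregation. Of 14 tested fibroblast markers, 3 rose, 3 fell and 8 were not called, and their summed level was 30.9 FPKM without and 38.6 FPKM with doxycycline. Mmp2 rose from 6.62 to 14.9 FPKM, Col1a1 from 1.11 to 4.43 FPKM and Col6a1 from 0.53 to 0.773 FPKM. Thy1 fell from 9.34 to 6.42 FPKM, Dcn from 2.08 to 1.39 FPKM and Pdgfrb from 0.706 to 0.47 FPKM. Col1a2 was not called, and Lum, at 0.0267 and 0.0481 FPKM, was not tested by the authors. The value with doxycycline was the lower in 9 of the 14 tested markers, so the higher sum is no rise of the list as a whole. The part of fibroblasts in the results below was not tested.

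Several genes of the middle of glycolysis and of lactate export were lower in cells with doxycycline, among them Tpi1 and Slc16a3. Of the main glucose transporter genes, Slc2a1 was lower and Slc2a3 higher. The 16 other hypoxia-response genes held 5 falls and 1 rise, and 10 of them were not called. Of the 39 members that were tested, 14 fell, 4 rose and 21 were not called. The other 3, Gapdh, Eno1 and Ldha, had the status HIDATA, Cuffdiff's mark for loci that hold more fragments than it will process, and their listed zeros are failed estimates. Over all 18537 tested genes, 23.2% were called, 12.7% lower and 10.5% higher. Most members are abundant, so the share among genes that reach 10 FPKM in either group is the closer background. At that level 27% of 6244 tested genes were called, 18.3% lower and 8.71% higher, against 12 lower and 3 higher of 28 members. The level was chosen after seeing the data, and Egln1, 1 of the 12, reached it only without doxycycline. In RNA of whole embryoid bodies, fewer cells of a type and less RNA per cell cannot be told apart. None of the members changed 2-fold or more, and 5 changed at least 1.5-fold.

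**Figure D1:**
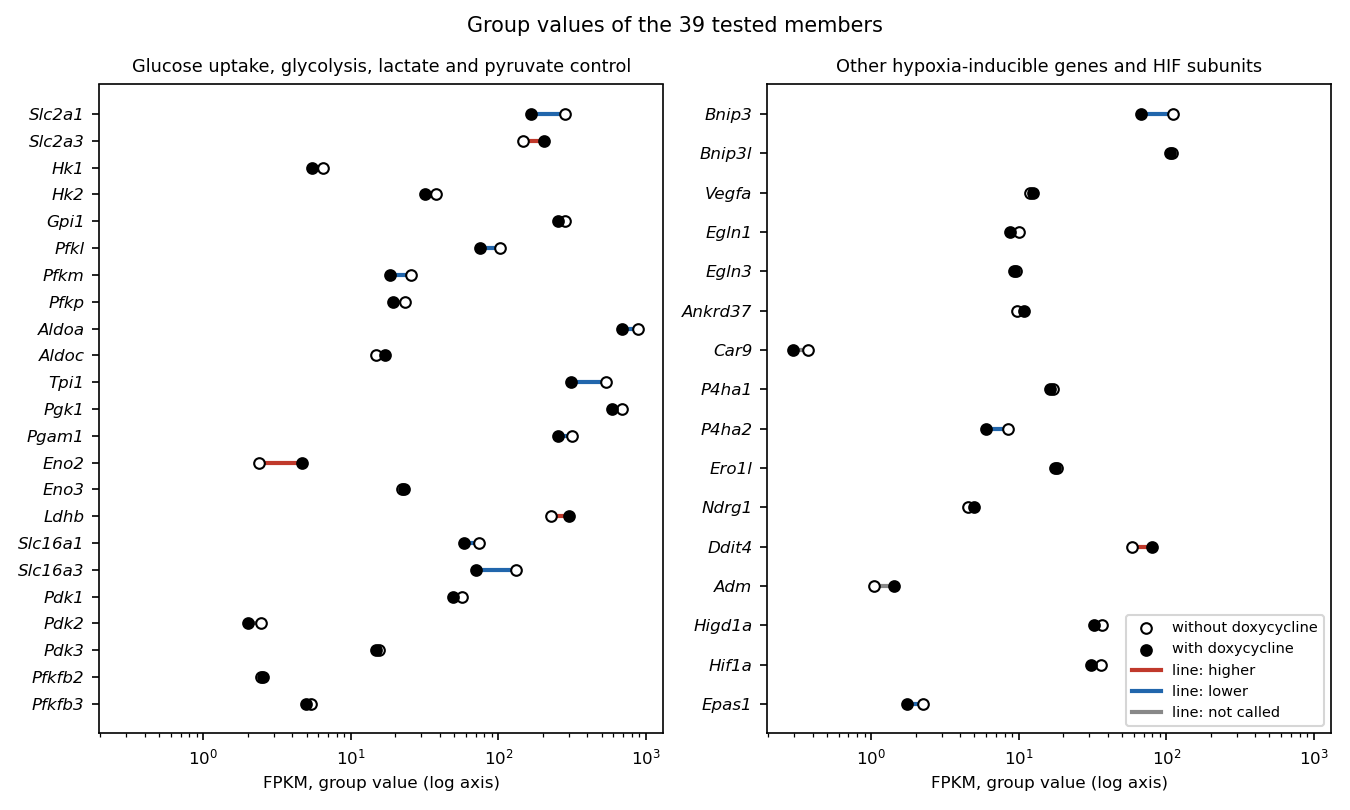
Group values of the 39 tested members in FPKM on a log axis, with the glycolysis genes on the left in pathway order and the other hypoxia-inducible genes on the right. Open points are cells without and filled points cells with doxycycline, 1 value per group from 3 libraries, and the line is coloured by the call. Filled points lie left of open points for most of the abundant glycolytic enzymes, as in Tpi1 (533 and 312 FPKM), and right of them in Slc2a3, Eno2 and Ldhb.

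The glycolysis group had 9 of 23 tested members lower, 3 higher and 11 not called by the authors' test. Its median log2 ratio (with over without doxycycline, no pseudocount) was -0.24, beside -0.03 over all tested genes. For glycolysis members and all tested genes that reach 10 FPKM in either group, these medians were -0.25 and -0.06. The value with doxycycline was the lower in 17 of the 23 tested genes. The hypoxia group had 5 of 16 members lower, 1 higher and 10 not called, beside 12.7% lower and 10.5% higher of all tested genes. Among its 10 members at 10 FPKM or more, 3 fell and 1 rose, beside 18.3% and 8.71% of tested genes at that level. Egln1, which fell from 10.04 to 8.70 FPKM, reached that level only without doxycycline. The median log2 ratio of the hypoxia group was -0.06, which turned to 0.0196 when centred on tested genes at 100 FPKM or more. The difference between both groups of genes was not tested. Without the rows that share a locus with another gene, 5 glycolysis genes fell, and at q under 0.01, 2 hypoxia genes fell.

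To show the regulatory sequence in front of the members that changed most, the 250 bases upstream of the RefSeq transcription start are given for the 5 called members with a log2 ratio of at least 0.7 in size, 4 that fell and 1 that rose. Capitals mark the letters of the HIF core motif, which was searched as ACGTG and, in its other form, as GCGTG. They also mark the GC box that Sp-family factors are known to bind, for which the letters searched were GGGCGG. Both strands were searched, so a motif on the other strand appears in capitals as its reverse complement.
Slc16a3 (GRCm38.p6, chr11:120948817-120949066, + strand): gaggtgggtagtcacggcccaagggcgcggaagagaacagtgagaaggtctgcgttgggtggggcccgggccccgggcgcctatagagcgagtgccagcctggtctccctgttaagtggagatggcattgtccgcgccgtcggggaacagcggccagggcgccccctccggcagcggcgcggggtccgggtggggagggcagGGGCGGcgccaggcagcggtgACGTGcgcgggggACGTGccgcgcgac
Slc2a1 (GRCm38.p6, chr4:119108495-119108744, + strand): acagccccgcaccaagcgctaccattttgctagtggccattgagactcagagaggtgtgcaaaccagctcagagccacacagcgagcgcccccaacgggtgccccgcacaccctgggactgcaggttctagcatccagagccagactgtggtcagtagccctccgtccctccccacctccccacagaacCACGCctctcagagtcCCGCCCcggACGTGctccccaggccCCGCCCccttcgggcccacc
Tpi1 (GRCm38.p6, chr6:124814159-124814408, - strand): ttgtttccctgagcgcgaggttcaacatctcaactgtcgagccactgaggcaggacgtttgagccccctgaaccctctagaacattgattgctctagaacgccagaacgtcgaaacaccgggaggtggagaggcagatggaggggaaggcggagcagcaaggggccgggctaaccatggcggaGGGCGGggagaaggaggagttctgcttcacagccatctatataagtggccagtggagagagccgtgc
Bnip3 (GRCm38.p6, chr7:138909507-138909756, - strand): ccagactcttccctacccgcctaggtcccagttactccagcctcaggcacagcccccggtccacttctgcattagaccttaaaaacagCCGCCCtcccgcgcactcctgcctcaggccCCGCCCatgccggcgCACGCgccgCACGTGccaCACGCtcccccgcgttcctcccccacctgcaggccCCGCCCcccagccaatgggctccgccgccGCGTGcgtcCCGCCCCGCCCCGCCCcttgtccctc
Eno2 (GRCm38.p6, chr6:124769674-124769923, - strand): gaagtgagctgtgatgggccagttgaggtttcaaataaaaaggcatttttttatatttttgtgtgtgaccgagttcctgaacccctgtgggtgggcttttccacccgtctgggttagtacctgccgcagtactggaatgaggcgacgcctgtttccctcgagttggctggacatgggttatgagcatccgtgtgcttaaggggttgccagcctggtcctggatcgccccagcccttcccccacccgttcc
Slc16a3 held 2 ACGTG motifs, at 27 to 23 and at 14 to 10 bases before the start, beside 1 GC box. The Slc2a1 window held 1 ACGTG, 1 GCGTG and 2 GC boxes within its last 61 bases. In the Bnip3 window there were 3 GCGTG motifs, 6 GC boxes, of which the last 3 overlap by 1 base each, and a CACGTG, which reads as ACGTG on both strands and was counted as 2. Tpi1 held 1 GC box and neither HIF core motif, and the Eno2 window, in front of the 1 member of the 5 that rose, held none of the 3 motifs. Windows were available for 38 members, with 54 windows in all because some genes have several starts, and Ero1l was matched under its current symbol Ero1a. The HIF core was present in 83.3% of the members' windows and the GC box in 57.4%, whereas 38.6% and 32.7% of all 32851 promoter windows held them. By call, 12 of 13 genes that fell and 18 of 19 that were not called had a HIF core in at least 1 window, and 10 of 13 and 14 of 19 a GC box. Of the 3 genes that rose and had a window, Eno2, Ldhb and Ddit4, 2 had a HIF core and 1 a GC box. A gene with several starts had more chances to hold a motif, and windows were not matched on base composition. The members were also chosen as glycolysis and hypoxia-response genes, so their share of HIF cores is no independent result. These matches describe the letters in these windows and are no evidence of binding. Slc2a3, Bnip3l, Ndrg1 and Epas1 are named only.

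Glucose enters through facilitative transporters, and the main pair moved in opposite directions. Slc2a1 (GLUT1, the widely expressed transporter) stood at 283 FPKM without and 166 FPKM with doxycycline, so that it fell by 0.77 on the log2 scale (1.70-fold lower in the authors' deposited table, where its q is printed as 0, below the smallest value shown there). Slc2a3 (GLUT3, a high-affinity transporter known from neurons and early embryos) stood at 146 FPKM and rose to 205 FPKM (1.40-fold, q = 2.51e-05 in the authors' deposited table). Slc2a1 was thus the higher of the pair without doxycycline and Slc2a3 the higher with it. Slc2a1 made up 66.0% of the pair's summed FPKM without and 44.7% with doxycycline, and the sum went from 429 to 371 FPKM. The row of Slc2a1 covers chromosome 4, positions 118781316 to 118811406, and that of Slc2a3 chromosome 6, positions 122677827 to 122751658, both in mm9 with starts written from 1. At the locus of Slc2a1 the table also has the predicted genes Gm12867 (1.41 and 1.08 FPKM) and Gm12868 (2.17 and 1.43 FPKM), which were not called, and reads of such rows may not be separable from those of Slc2a1. The insulin-responsive transporter Slc2a4 and the liver transporter Slc2a2 stayed under 1 FPKM in both groups and were not called.

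Hexokinases, which trap glucose as its phosphate, were not called. Hk2, the most abundant of them, had 37.8 FPKM without and 31.7 FPKM with doxycycline (q = 0.117), and Hk1 6.48 and 5.49 FPKM (q = 0.0594, both in the authors' deposited table). Hk1 was 1 of 3 members with a q between 0.05 and 0.06. Gpi1, the isomerase of the next step, was at 280 and 252 FPKM and was not called either (q = 0.112). Both hexokinases and Gpi1 had lower values with doxycycline, but the differences did not pass the test.

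Phosphofructokinase, the committed and most regulated step of glycolysis, has a liver, a muscle and a platelet subunit gene. Pfkl, the most abundant, fell from 102 to 75.2 FPKM (1.36-fold lower, q = 7.08e-08) and Pfkm from 25.6 to 18.5 FPKM (1.38-fold lower, q = 5.28e-08, both in the authors' deposited table). Pfkp had 23.2 and 19.4 FPKM and was not called (q = 0.323). The summed level of the 3 genes went from 151 to 113 FPKM with nearly constant composition, Pfkl making up 67.7% without and 66.5% with doxycycline. Pfkm shares its row's locus with Senp1, which fell too (10.2 to 8.44 FPKM, q = 0.0452), and the reads of such a pair may not be separable. Pfkfb2 (2.47 and 2.52 FPKM) and Pfkfb3 (5.36 and 4.99 FPKM), whose products make and remove the allosteric activator of phosphofructokinase, were not called.

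The enzymes below phosphofructokinase were the most abundant tested members, and all that had an interpretable value up to phosphoglycerate mutase fell except the minor aldolase. Aldoa, the main aldolase, ranked at position 93 of 18537 tested genes without doxycycline and fell from 879 to 689 FPKM (1.28-fold lower, q = 9.96e-05 in the authors' deposited table). Tpi1, which interconverts the triose phosphates, fell from 533 to 312 FPKM (1.70-fold lower, q listed as 0). Pgk1 and Pgam1, the kinase and mutase of the energy-yielding part of the pathway, fell from 691 to 590 FPKM (q = 0.0206) and from 314 to 254 FPKM (q = 6.84e-05), respectively. The locus of Tpi1 also holds Spsb2, which was not called at 4.75 and 4.97 FPKM. The ratio of Tpi1 was farther from 1 than those of Aldoa, Pgk1 and Pgam1, although the difference between genes was not tested. Aldoc, the brain aldolase, had 14.8 and 17.0 FPKM and was not called (q = 0.230). Reads of these abundant genes can be shared with processed copies, and the table names such rows for Pgam1 and Pgk1. The highest of them, Pgam1-ps2, had 2.63 and 2.10 FPKM and was not called.

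Enolase and lactate dehydrogenase could be followed only in part. Eno2, the neuronal enolase, rose from 2.40 to 4.65 FPKM (1.94-fold, q = 0.000217 in the authors' deposited table), the largest rise among the members. Eno3, the muscle enolase, had 22.2 and 23.0 FPKM and was not called. Eno1, the widely expressed enolase, was among the failed estimates. Ldhb, the subunit known from oxidative tissues that favours the use of lactate, rose from 227 to 302 FPKM (1.33-fold, q = 3.95e-09). Ldha, the subunit known to favour lactate production, was listed at 0 without and at 1263 FPKM with doxycycline in a row that was not tested, so that no ratio of Ldha to Ldhb can be compared between the groups.

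Lactate leaves the cell through monocarboxylate transporters, and both members fell. Slc16a3 (MCT4, the low-affinity exporter of glycolytic cells and a known HIF target) fell from 131 to 69.9 FPKM (1.87-fold lower, q printed as 0 in the authors' deposited table), the largest fall among the members. Slc16a1 (MCT1) fell from 73.5 to 58.2 FPKM (1.26-fold lower, q = 2.19e-06). Slc16a3 stayed above Slc16a1 in both groups, with 64.0% and 54.6% of their sum, which went from 204 to 128 FPKM. Bsg, the chaperone that carries these transporters to the cell surface, was at 270 and 277 FPKM and was not called. The row of Slc16a3 shares its locus (chromosome 11, positions 120809794 to 120852644) with Csnk1d, which had 54.0 and 46.6 FPKM and was not called.

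Pyruvate dehydrogenase kinases, which keep pyruvate out of the mitochondrial oxidation pathway, were not called. Pdk1, the HIF-responsive and most abundant of them, had 56.5 FPKM without and 49.1 FPKM with doxycycline (q = 0.223 in the authors' deposited table), Pdk3 15.5 and 14.9 FPKM, and Pdk2 2.45 and 2.00 FPKM. Pdha1, the catalytic subunit of pyruvate dehydrogenase that these kinases phosphorylate, rose from 65.6 to 99.7 FPKM (1.52-fold, q listed as 0). Its row shares a locus with Map3k15, which rose too (3.03 to 5.14 FPKM, q = 0.00751), and their reads may not be separable. The other subunit genes of the complex, Pdhb (95.2 and 89.5 FPKM), Dlat, Dld and Pdhx, were not called.

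Counted by step, which was done after the values were seen, the most abundant of the listed members fell in 7 of 14 roles and was not called in 4. In the other 3 a member had a failed estimate, so that this gene could not be settled. Genes outside the members were not counted, such as Pfkfb1, which at 8.94 FPKM without doxycycline was above Pfkfb3. The 7 were glucose uptake, phosphofructokinase, aldolase, triosephosphate isomerase, phosphoglycerate kinase, phosphoglycerate mutase and lactate export. The most abundant member was the one with the largest value in either group. For glucose uptake this was Slc2a1 without doxycycline (283 FPKM). With doxycycline Slc2a3, which rose, was the higher (205 against 166 FPKM), so that this role held both directions. Of all tested genes that reach 10 FPKM in either group, 18.3% fell.

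**Figure D2:**
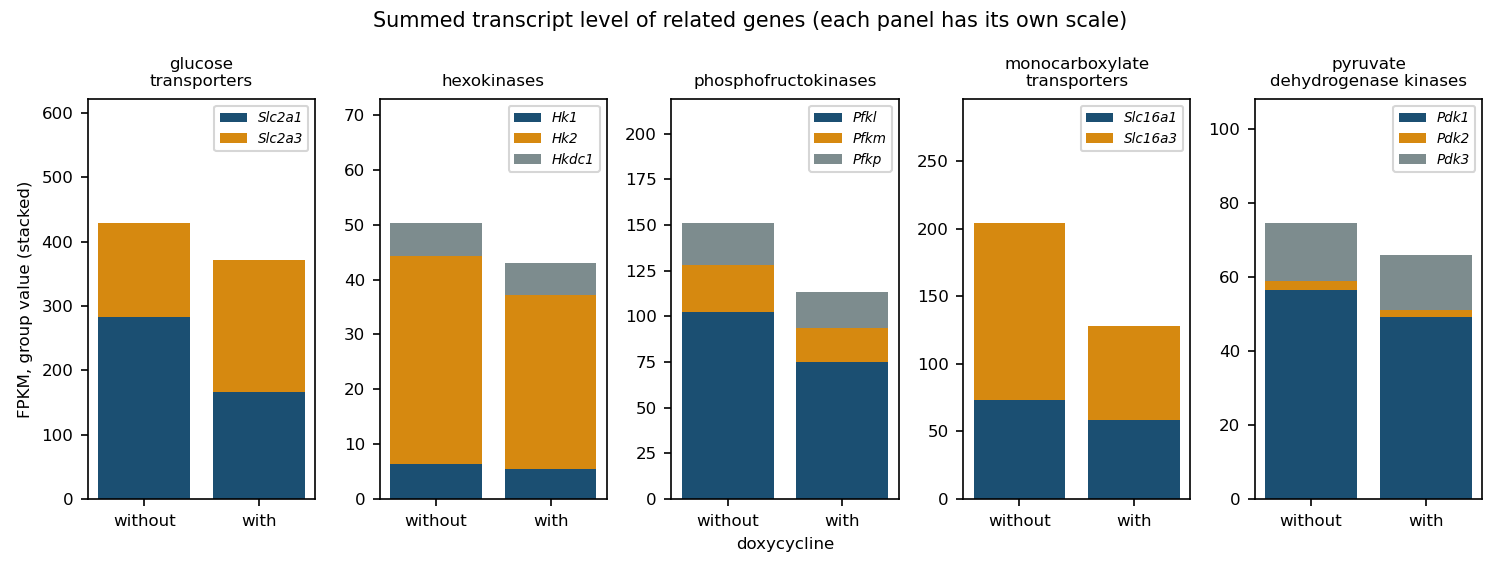
Stacked FPKM values of related genes in cells without and with doxycycline, 1 group value each and no error bars, in panels that each have their own scale starting at 0. The glucose transporters exchange rank while their sum goes from 429 to 371 FPKM, phosphofructokinases keep their composition at a lower sum, and monocarboxylate transporters go from 204 to 128 FPKM.

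The HIF alpha subunits were lower in value with doxycycline, and 1 of them passed the test. Epas1, which encodes the HIF alpha subunit best known from endothelium, was low and fell from 2.23 to 1.74 FPKM (1.28-fold lower, q = 0.00195 in the authors' deposited table). Hif1a, the main alpha subunit, had 36.2 and 31.1 FPKM and was just outside the threshold (q = 0.0583). Hif1a made up 86.6% of the summed level of Hif1a, Epas1 and Hif3a without and 87.6% with doxycycline. HIF activity is set largely by stability of the protein, which transcript levels do not measure.

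The oxygen sensors among the members, Egln1 and Egln3, themselves HIF targets, differed little. Egln1 fell from 10.04 to 8.70 FPKM (1.15-fold lower, q = 0.026 in the authors' deposited table). Egln3 had 9.58 and 9.28 FPKM and was not called. Egln2, outside the members, was the most abundant of the Egln genes at 24.0 and 25.9 FPKM and was not called. It made up 55.0% of their summed level without and 59.0% with doxycycline, and the sum was 43.6 and 43.9 FPKM.

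Bnip3 and Bnip3l, receptors that mark mitochondria for autophagy, stood at nearly the same level without doxycycline, and 1 of the pair changed. Bnip3 fell from 110 to 67.6 FPKM (1.63-fold lower, q printed as 0 in the authors' deposited table), whereas Bnip3l had 108 and 106 FPKM and was not called (q = 0.938). The difference between their changes was not tested. Bnip3 was the only member of the hypoxia group to change at least 1.5-fold. Its row covers chromosome 7, positions 146082519 to 146101202.

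Among the members, the genes of secreted and surface products, Vegfa, Adm and Car9, were not called. Some such genes outside the members were called, among them Igfbp3 and Vldlr higher and Mif and Flt1 lower. Vegfa, the endothelial growth factor and most studied HIF target, had 11.8 and 12.5 FPKM and was not called (q = 0.840 in the authors' deposited table). Adm, which encodes the vasodilator peptide adrenomedullin, had a higher value with doxycycline (1.05 FPKM without and 1.42 FPKM with it) that did not pass the test (q = 0.054). Car9, the carbonic anhydrase that is known for near-complete dependence on HIF, stayed under 1 FPKM in both groups (0.374 and 0.293 FPKM) and was not called.

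Among genes of protein maturation and stress, changes went both ways. P4ha2, an alpha subunit of collagen prolyl hydroxylase, fell from 8.49 to 5.99 FPKM (1.42-fold lower, q = 0.0232 in the authors' deposited table), while its paralogue P4ha1 (17.1 and 16.4 FPKM) and the disulfide oxidase gene Ero1l (18.3 and 17.5 FPKM) were not called. Ddit4, an inhibitor of mTOR signalling that responds to low oxygen and to several other stresses, rose from 58.7 to 79.4 FPKM (1.35-fold, q = 1.34e-10), the only rise in the hypoxia group. Higd1a, a mitochondrial inner membrane protein, fell from 36.5 to 32.3 FPKM (1.13-fold lower, q = 0.0374). Ndrg1 (4.54 and 4.97 FPKM) and Ankrd37 (9.79 and 10.8 FPKM) were not called, and Ankrd37 shares its locus with Ufsp2 and Lrp2bp.

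**Figure D3:**
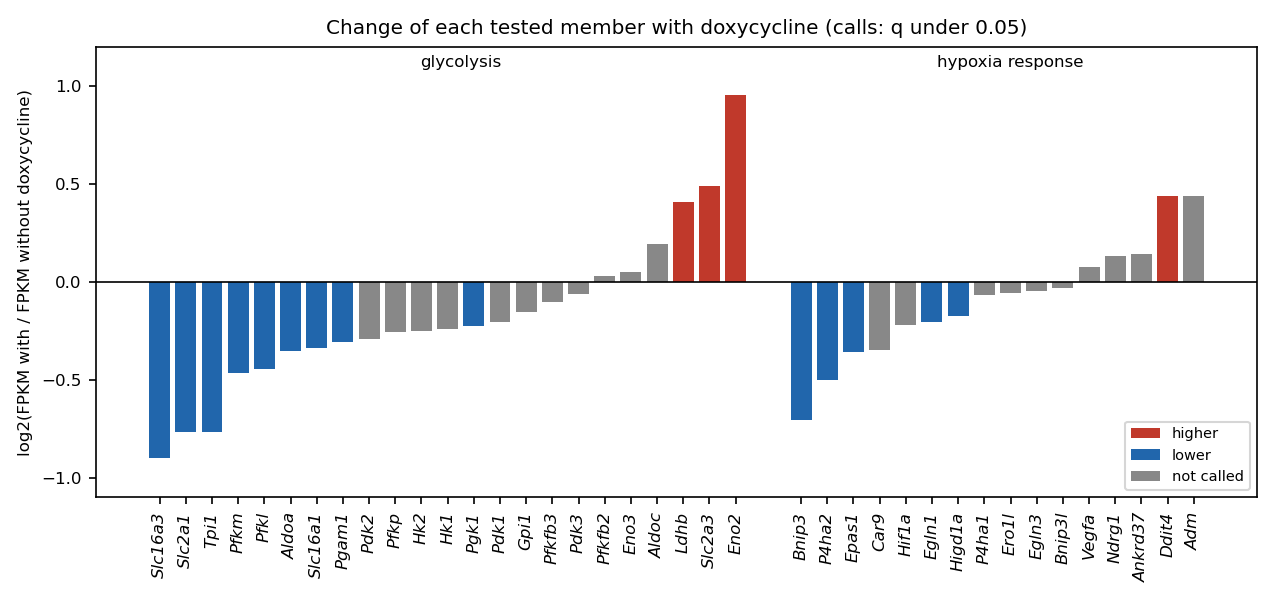
Log2 ratio of the group values, with over without doxycycline, for each tested member, ordered by size within the glycolysis and hypoxia groups and coloured by the call at q under 0.05. In the glycolysis group the bars run from -0.90 (Slc16a3) to 0.96 (Eno2), and in the hypoxia group from -0.71 (Bnip3) to 0.44 (Ddit4 and Adm).

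Other genes of these pathways were read from lists drawn up by function, to be read against the 12.7% of all tested genes that fell and the 10.5% that rose. Among genes that reach 10 FPKM in either group these shares were 18.3% and 8.71%, the closer background for lists of abundant genes. Of 25 tested further glycolysis genes, 2 rose, 3 fell and 20 were not called. By the rule of at least 1.5-fold and 1 FPKM, only Eno4, an enolase-like gene of sperm, is named, at 0.648 and 1.19 FPKM (1.84-fold higher, q = 1.95e-05 in the authors' deposited table). Pkm2, the row of the muscle-type pyruvate kinase, was another failed estimate with 0 in both groups. In the list of pyruvate entry and gluconeogenesis, 4 of 16 tested genes fell, 2 rose and 10 were not called. Beside Pdha1, Brp44l (now Mpc1), a subunit of the mitochondrial pyruvate carrier, rose from 8.99 to 15.5 FPKM (1.72-fold, q = 2.12e-09), at a locus shared with 4930506C21Rik (0.364 and 0.691 FPKM, not called). Fbp1, the gluconeogenic fructose bisphosphatase, fell from 1.21 to 0.590 FPKM (2.05-fold lower, q = 1.39e-06). Brp44, the carrier's other subunit gene, had 9.05 and 7.19 FPKM and was not called.

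In the pentose phosphate list, with a median of 36.3 FPKM without doxycycline, 5 of 11 genes fell, 1 rose and 5 were not called. The rise was that of H6pd, the dehydrogenase of the endoplasmic reticulum, from 2.25 to 3.64 FPKM (1.61-fold, q = 6.79e-07 in the authors' deposited table). G6pdx, the cytosolic enzyme that commits glucose to the pathway, had 47.5 and 43.5 FPKM and was not called. All 5 falls were among the genes outside the rule for naming, with Taldo1 (177 to 146 FPKM, q = 0.000123), named after its values were seen, the most abundant. The median log2 ratio of the list was -0.19.

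HIF regulators showed 2 rises, 3 falls and 13 genes not called of 18, and none of the called changes reached 1.5-fold. Arnt, the constitutive partner of HIF alpha, had 12.3 and 13.8 FPKM, Vhl, the ubiquitin ligase subunit that recognises hydroxylated HIF, 7.43 and 7.09 FPKM, and Hif1an, the asparaginyl hydroxylase, 10.8 and 10.5 FPKM. None of these 3 genes was called. Rbx1 and Tceb1, which encode partners of Vhl in its ligase, fell from 147 to 106 FPKM (q = 1.97e-10) and from 132 to 108 FPKM (q = 5.42e-05 in the authors' deposited table). Cul2 (39.8 and 38.8 FPKM) and Tceb2 (451 and 449 FPKM), which also encode partners of Vhl, were not called. Arnt2, the paralogue of Arnt, rose from 2.42 to 3.33 FPKM (q = 2.89e-06). These genes were picked with their values known. Other HIF targets went both ways, with 11 of 38 higher, 13 lower and 14 not called. The 11 rises became 7 without rows that share a locus and 4 at 10 FPKM or more, and the 13 falls became 6 at that level. The named rises were Igfbp3, which encodes an insulin-like growth factor binding protein (9.31 to 23.4 FPKM, 2.52-fold), the nuclear receptor gene Rora (2.22-fold), the glycogen phosphorylase gene Pygl (1.64-fold) and the lipoprotein receptor gene Vldlr (1.56-fold). Tmem45a, a transmembrane protein gene, fell from 2.64 to 1.39 FPKM (1.90-fold lower, q = 0.00504 in the authors' deposited table).

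**Figure D4:**
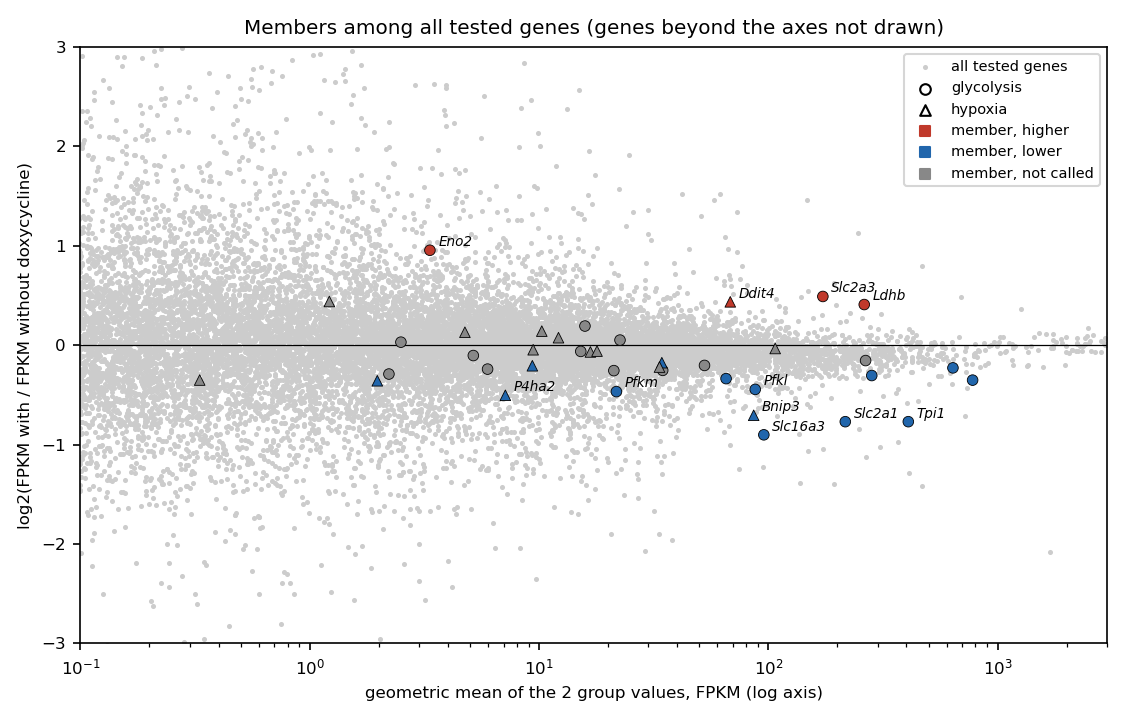
Change against level for tested genes, with the geometric mean of both group values in FPKM on the x axis (log) and the log2 ratio of with over without doxycycline on the y axis. Grey points are all tested genes within the axes, circles are glycolysis and triangles other hypoxia-inducible members, coloured by call. Where either group reached 100 FPKM, 8 of 12 tested members fell and 2 rose, beside 20% and 4.08% of 932 tested genes. Of the falls, Pfkl, Slc16a3 and Bnip3 reached 100 FPKM only without doxycycline.

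The most abundant members made up much of the count. At 100 FPKM or more in either group, 12 members were tested, of which 8 fell and 2 rose, and Gpi1 and Bnip3l were not called. Pfkl, Slc16a3 and Bnip3 reached that level only without doxycycline (75.2, 69.9 and 67.6 FPKM with it). They could thus enter the count with a lower value only, and the same bound was used for all genes. Among all 932 tested genes of that level, 24% were called, 20% lower and 4.08% higher, with a median log2 ratio of -0.08 against -0.33 for the members. Of the tested members under 10 FPKM in both groups, P4ha2 and Epas1 fell and Eno2 rose. The others, Hk1, Pdk2, Pfkfb2, Pfkfb3, Egln3, Car9, Ndrg1 and Adm, were not called. The share of all genes under that level was not counted, so these calls give no contrast with the abundant members. Without counts the depth is unknown, so a low gene such as Car9 carries no interval. The test was the authors' own, with both groups' libraries combined before deposit, and no value per library was analysed here.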

How the data were processed

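RNA from 6 libraries in 2 groups of 3 was captured with oligo-dT beads and prepared with a TruSeq kit, per the labels' protocols, which mention no strand marking. The submitters' processing notes name Cuffdiff, Cufflinks 2.0.2, TopHat2 2.0.8, Picard and Bowtie, with build mm9. Annotation, filters and library scaling were not given in the sources used here. The authors deposited 1 FPKM value per group, a log2 fold change, a p-value and a q-value for each gene. Of 36699 rows, 18537 were tested, and a call is status OK with q under 0.05, which matched the authors' mark in every row. Deposited q-values equalled Benjamini-Hochberg values recomputed over tested rows to within 1.79e-06. Fold changes are ratios of the group values without a pseudocount (Python 3.11.15, pandas 2.3.3, numpy 2.4.6). Counting and motif search were tested on simulated data.

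The members and gene lists were chosen with earlier results of these data known. Members are all accounted for; of the other lists, called genes at 1 FPKM or more and at least 1.5-fold are named, at most 6 per list. Names with no row of their own (mostly alternative symbols) were left out of the list counts. Rows sharing a locus can share reads. Loci are in mm9, and promoter sequences are RefSeq's in GRCm38.p6; neither was converted. Alternatives were a stricter q, a minimum fold, minimum levels, leaving out shared loci, pseudocounts and centring.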

Additional observations from a re-analysis of the deposited data

How the results depend on the processing

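With a minimum of 1.5-fold, the counts of members called lower went from 14 to 4 in all, from 9 to 3 in the glycolysis group and from 5 to 1 in the hypoxia group, and those called higher from 4 to 1, from 3 to 1 and from 1 to 0. Without rows that share a locus, 5 glycolysis members fell instead of 9; those left out were Slc2a1, Tpi1, Pfkm and Slc16a3, so that 3 of the 4 falls of at least 1.5-fold are in rows with a neighbour. In the hypoxia group 2 members fell at q under 0.01, and 3 at 10 FPKM or more, a level chosen after seeing the data. The hypoxia median of -0.06 turned to 0.0196 when centred on tested genes at 100 FPKM or more, also chosen after seeing the data. The remaining 32 alternative values for the member counts and medians stayed within 1.5 times the count or 0.1 (log2) of the median. Of 50 counts for the other lists, 20 moved by more than 1.5 times; without rows that share a locus, both rises of the pyruvate list, Pdha1 and Brp44l, were left out. Centring on tested genes at 1 FPKM or more moved every ratio by 0.04. Of 168 tested members and list genes it turned 9, none of them called, among them Bnip3l (to 0.01), Pdhx and Sox2. No paired analysis was possible because the table holds 1 value per group, and for the same reason leaving out a replicate was not run. Depth is unknown and sets no stated limit.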

Other observations

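In the whole table, the members included, 116 rows had the status HIDATA, 79 of them at 0 in both groups, 29 at 0 with doxycycline only and 8 at 0 without doxycycline only. Ldha was 1 of these 8. Gapdh, Eno1 and Pkm2 were at 0 in both groups. The dehydrogenase of the triose stage and the main genes of enolase, pyruvate kinase and lactate formation thus have no comparison here.

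A pair of the rises lay near genes with larger rises, which was noticed after the values were seen and was not tested. On chromosome 6 in mm9, 13175 bases lie between the nearest edges of the Nanog and Slc2a3 rows. The strand of the genes was not considered, so this is no distance to a transcription start. Nanog rose from 46.0 to 117 FPKM (2.54-fold in the authors' deposited table, with q listed as 0). Between the nearest edges of the rows of Brp44l and T, the Brachyury gene, lie 123342 bases on chromosome 17. T rose from 0.745 to 103 FPKM (138-fold).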
